A study of Mus musculus with 2 samples.

Results

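The cells described here are the 25% of alveolar type 2 (AE2) cells with the most transcripts of 4 secreted factors in mouse lungs after lipopolysaccharide (LPS), a component of the outer membrane of Gram-negative bacteria. A cell counted as AE2 where surfactant protein C (Sftpc) made up at least 1% of its transcript molecules (UMIs), at least 3 of 6 further AE2 genes (Lamp3, Abca3, Slc34a2, Napsa, Lpcat1, Etv5) were detected and the leukocyte gene Ptprc was not. Its score was the sum of Cxcl1, Cxcl5, Csf2 and Ccl20 per 10000 UMIs, and the cells were chosen by this score alone, as its top 25% over all AE2 cells after LPS. This gave 1045 chemokine-high cells, against 3133 other AE2 cells after LPS, out of 4178 AE2 cells after LPS, 5838 cells after LPS past the quality limits and 14048 barcodes in the series. Lung cells of C57BL/6JRj mice aged 18 months (old) or 3 months (young) were collected 24 h after LPS (2.5 mg/kg) or saline, sorted for the epithelial surface protein EpCAM with dead cells excluded by the dye DAPI, and profiled by droplet single-cell RNA sequencing. There were 2 libraries in each of 4 groups: old LPS, young LPS, old control and young control. Each group carried its own hashtag antibody, and the 4 groups were pooled on 1 lane in each of 2 lanes, so the libraries of a number share a lane. The number of mice behind a library is not given in the sources used here, so p-values measure the spread between libraries, which may be technical.

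AE2 cells line the alveoli, make and recycle pulmonary surfactant in lamellar bodies and serve as progenitors of the flat type 1 (AE1) cells across which gas is exchanged. They also sense bacterial products: LPS is handed by the co-receptor CD14 to the TLR4 complex, whose adaptor MyD88 leads to the release of NF-kappaB factors from their inhibitors and to the transcription of chemokines and cytokines. CXCL1, CXCL2, CXCL3 and CXCL5 bind the receptor CXCR2 and recruit neutrophils. CCL20 binds CCR6 and attracts dendritic cells and lymphocytes. CSF2 (GM-CSF) maintains alveolar macrophages and CSF3 (G-CSF) drives the formation of neutrophils.

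The 12 AE2 markers were all detected in the chemokine-high cells of each library, and together they made up 883 to 993 of 10000 UMIs, against 1108 to 1721 in the other AE2 cells. Total depth was 6228266 to 15435789 UMIs per library, and 11245 barcodes had at least 500 genes and at most 20% mitochondrial UMIs. No barcode occurred in more than 1 library of a lane, and 2 occurred in both lanes. The first old LPS library stood apart before any cut: 13% of its AE2 cells had no scoring UMI at all, against 31.6% in the second old library and 33.0% and 36.7% in the young libraries. Results that turn on a library are given with the value without it.

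Promoters were looked up for 7 secreted factors on which the results turn (the 4 scoring genes, Cxcl2, Cxcl3 and Csf3). In the set of RefSeq promoters used here (build GRCm38.p6), 5 of them were matched. The stretch before the transcription start is shown for the 4 that hold the NF-kappaB-like word GGGNNTTTCC, where any base may stand for N. Capitals mark the word on either strand. Each line gives 150 bases of the plus strand, 5′ to 3′, and ends at the base before the RefSeq start.
Cxcl1, chr5:90891095-90891244: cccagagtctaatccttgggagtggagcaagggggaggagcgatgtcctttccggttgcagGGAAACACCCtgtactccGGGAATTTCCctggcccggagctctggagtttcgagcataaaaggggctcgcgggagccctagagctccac
Cxcl2, chr5:90903749-90903898: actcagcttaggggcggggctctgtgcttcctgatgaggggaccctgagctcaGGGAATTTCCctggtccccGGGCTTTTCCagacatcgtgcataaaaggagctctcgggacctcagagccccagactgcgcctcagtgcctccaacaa
Cxcl3, chr5:90785951-90786100: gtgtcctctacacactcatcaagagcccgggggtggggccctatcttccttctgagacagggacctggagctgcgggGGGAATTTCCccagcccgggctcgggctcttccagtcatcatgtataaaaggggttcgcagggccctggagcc
Ccl20, chr1:83116616-83116765: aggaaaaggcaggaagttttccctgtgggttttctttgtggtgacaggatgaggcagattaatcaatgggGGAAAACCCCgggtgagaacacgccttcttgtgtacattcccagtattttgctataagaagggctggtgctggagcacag
Counted from the start, the matches begin at -89 on the minus strand and -71 on the plus strand in Cxcl1, at -97 and -78 on the plus strand in Cxcl2, at -73 on the plus strand in Cxcl3 and at -80 on the minus strand in Ccl20. Cxcl5 and Csf3 were not matched in that set. No match lay in the window of Csf2 (chr11:54249850-54250149, 250 bases before to 50 after the RefSeq start). The Csf2 gene as placed below, on the minus strand, starts at 54249667. Its window leaves out the bases just before that start, which were not searched. The 10-base word occurred on either strand in 1.63% of 32851 promoter windows of the same length. It occurred in 4.90% of the 571 genes with a promoter called higher in the chemokine-high cells, in 1.18% of the 591 called lower, and in 2.03% of the 8363 tested. A match is a description of letters and was not tested as a binding site.

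**Figure D1:**
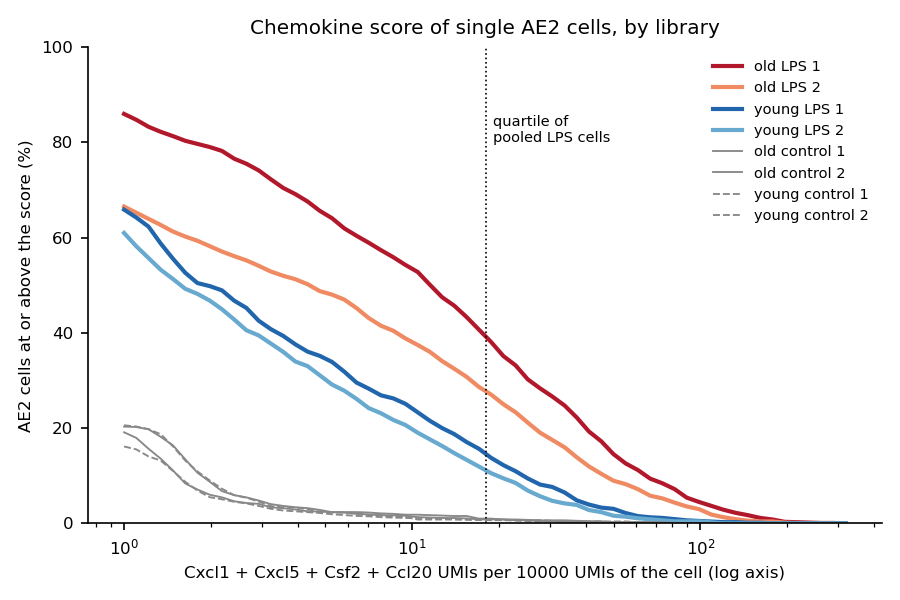
Percent of the AE2 cells of each library (vertical axis) at or above a given summed Cxcl1, Cxcl5, Csf2 and Ccl20 score (UMIs per 10000, log axis), 1 line per library, with the cut at 18.0 dotted. The old LPS libraries hold 39.5% and 27.6% of their AE2 cells past the cut, the young LPS libraries 14.8% and 11.2%, and the control libraries at most 1.00%.

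The score chose the cells, so its values are a description. The cut lay at 18.0 scoring UMIs per 10000, inside a continuous distribution: the 10 cells just inside it had a median of 18.1 and the 10 just outside 17.9, and 166 cells lay within 10% of it. The median score was 37.0 in the chemokine-high cells and 1.61 in the other AE2 cells, and the highest reached 312.5. The class is therefore the upper end of a range, with no gap below it. By library, 483 of 1224 AE2 cells of the first old LPS library were chemokine-high (39.5%, 95% Clopper-Pearson interval 36.7 to 42.3) and 342 of 1239 of the second (27.6%, 25.1 to 30.2). In the young LPS libraries it was 116 of 785 cells (14.8%, 12.4 to 17.5) and 104 of 930 (11.2%, 9.23 to 13.4). These intervals cover counting error only. The mean share was 33.5% ± 8.38 in old lungs and 13% ± 2.54 in young lungs (SD, n = 2 each), and both old libraries lay above both young ones. The difference of 20.6 percentage points had a two-sided exact permutation p of 0.333, the smallest that 2 libraries against 2 can give. Within lanes it was 24.7 and 16.4 points. AE2 cells of the old LPS libraries were also deeper, with medians of 9066 and 9040 UMIs, against 7592 and 8319.5 in the young LPS libraries. With each cell thinned to 3000 UMIs, which left out 16 and 38 old cells and 11 and 15 young ones, the shares were 43.1% and 30.2% in old and 18.0% and 14.1% in young LPS libraries.

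Very few AE2 cells of saline lungs passed the same cut: 9 of 1063 (0.847%) and 11 of 1098 (1.00%) in the old control libraries, and 5 of 743 (0.673%) and 8 of 1146 (0.698%) in the young ones. These 33 control cells were led by Cxcl5, which supplied 56.5% of their scoring UMIs. Transcripts free in the suspension can put UMIs into cells that do not make them. Among cells with ciliated-cell genes and little Sftpc, 18.4% to 29.3% held a scoring UMI per LPS library at median depths of 5703 to 6653.5 UMIs, against 56.3% to 78.5% of the other AE2 cells at median depths of 7474 to 8693 UMIs. Between 0 and 10 such ciliated-like cells per LPS library passed the cut. Their scoring genes did not stand in 1 ratio to those of AE2 cells, and the part of free RNA in them was not tested. In the first old LPS library they held 2.98 Ccl20 and 0.246 Cxcl1 UMIs per 10000, against 0.999 Ccl20 and 1.80 Cxcl1 UMIs in the other AE2 cells.

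The 4 scoring genes overlapped in the same cells without being one unit. Among the chemokine-high cells, 24.0% held UMIs of all 4 genes, 41.8% of 3, 27.5% of 2 and 6.70% of 1. Cxcl1 was detected in 77.4%, Cxcl5 in 74.4%, Csf2 in 70.4% and Ccl20 in 61.0% of them. Which gene led the score differed between the libraries of the ages. Cxcl1 led in 38.7% and 40.6% of the chemokine-high cells of old lungs, against 32.8% and 23.1% in young lungs. Cxcl5 led in 23.6% and 32.2% in old lungs, against 44.8% and 55.8% in young lungs. Ccl20 supplied 34.1% and 27.8% of the scoring UMIs in old lungs, against 23.2% and 19.0% in young lungs. The libraries of the ages did not overlap in these 3 measures, and with 2 libraries an age the difference was not tested.

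**Figure D2:**
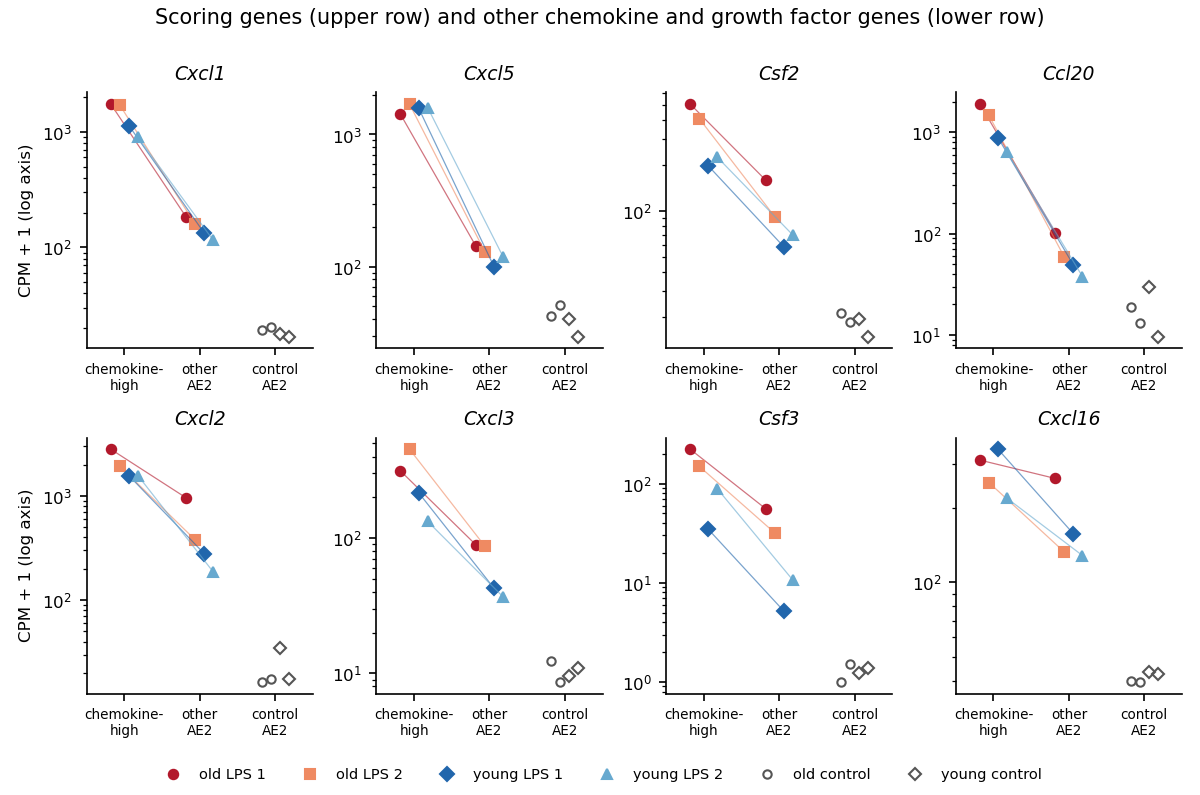
CPM, counts scaled to a common library total (log axis of CPM + 1), of 8 secreted factors in the summed chemokine-high cells, the summed other AE2 cells and the AE2 cells of control lungs, 1 point per library. Cxcl1 lies at 894 to 1732 CPM in chemokine-high cells, 114 to 182 CPM in other AE2 cells and 15.9 to 19.5 CPM in control cells.

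UMIs were summed over the cells of a class in each library and scaled to CPM, in the order first old, second old, first young and second young library. Cxcl1 (chromosome 5, 90891241 to 90893115, plus strand) had 1732, 1697, 1129 and 894 CPM in the chemokine-high cells, 182, 157, 132 and 114 CPM in the other AE2 cells, and 15.9 to 19.5 CPM in control AE2 cells. Cxcl5 (chromosome 5, 90759360 to 90761624, plus strand) had 1420.0, 1697, 1583 and 1597 CPM in the chemokine-high cells, 142, 128, 98.9 and 118 CPM in the other AE2 cells, and 28.4 to 49.7 CPM in control cells. Cxcl1 was thus highest in old chemokine-high cells, while Cxcl5 was at a like level at both ages. Csf2 (chromosome 11, 54247271 to 54249667, minus strand) had 506, 406, 198 and 225 CPM in the chemokine-high cells, 159, 91.1, 57.4 and 68.7 CPM in the other AE2 cells, and 13.9 to 20.5 CPM in control cells. Ccl20 (chromosome 1, 83116766 to 83119167, plus strand) had 1894, 1463, 881 and 639 CPM in the chemokine-high cells, 101, 57.6, 48.0 and 36.7 CPM in the other AE2 cells, and 8.59 to 28.9 CPM in control cells. These gaps follow from the choice of cells and carry no test.

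Each scoring gene was therefore set against cells chosen with the other 3. Cxcl1 had 1193, 1143, 762 and 495 CPM in cells high for Cxcl5, Csf2 and Ccl20, against 541, 423, 203 and 159 CPM in the rest, which is 1.56 ± 0.12 higher on the log2 scale (± SE; edgeR quasi-likelihood test, Benjamini-Hochberg adjusted p over all genes = 1.92e-04). In that fit 7.58% of all genes were called higher and 7.72% lower. Cxcl5 had 957, 1267, 764 and 738 CPM, against 432, 318, 279 and 248 CPM, a change of 1.58 ± 0.16 (edgeR, adjusted p = 0.00596; 6% of genes called higher and 6.34% lower). Both neutrophil chemokines were thus higher in cells picked without them, in 4 of 4 libraries. Csf2 had 415, 340, 167 and 155 CPM, against 222, 114, 62.7 and 76.7 CPM, a change of 1.27 ± 0.10 (edgeR, adjusted p = 3.19e-08; 6.95% of genes called higher and 7.27% lower). Ccl20 had 1282, 1024, 541 and 266 CPM, against 534, 241, 116 and 86.8 CPM, a change of 1.84 ± 0.22 (edgeR, adjusted p = 0.0180; 5.98% of genes called higher and 6.59% lower). Cells rich in any 3 of the factors were also richer in the fourth.

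Beyond the scoring genes, 10550 genes were compared between the chemokine-high and the other AE2 cells of the same libraries. They took no part in the score, apart from the total that scales it, though Sftpc and the 6 further AE2 genes chose both classes as AE2. At an adjusted p under 0.05 in edgeR, 732 genes (6.94%) were higher in the chemokine-high cells and 773 (7.33%) were lower, with a median log2 fold change over all genes of -0.01. By over 2-fold, 64 genes were higher and 174 lower. The chemokine-high sums all lay above the other sums for 293 genes (2.78%) and all below them for 717 (6.8%). Without the second old LPS library the calls numbered 405 higher and 356 lower. The chemokine-high cells were also the deeper ones in each library (median 9389 against 8693 UMIs, 11018.5 against 8144, 8510 against 7474 and 9293 against 8214.5). With cells thinned to 3000 UMIs before the choice, 393 genes were called higher and 402 lower. Of the 140 genes named by rule or by choice, 18 then lost their call. Among them were Cx3cl1 (edgeR, adjusted p = 0.351), Tnfrsf1a (0.261), Tbk1 (0.0995), Myd88 (0.234), Trp53 (0.152) and Vldlr (0.172). Vegfa (edgeR, adjusted p = 0.154), Bnip3 (0.195), Cdkn1a (0.0894), Ccnd1 (0.320) and Lcn2 (0.167) were others.

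Other CXCR2 ligands were among the genes with the largest differences. Cxcl2 (chromosome 5, 90903871 to 90905938, plus strand) had 2809.5, 1927, 1569 and 1569.5 CPM in the chemokine-high cells, against 958, 377, 278 and 185 CPM in the other AE2 cells and 15.4 to 33.9 CPM in control cells, a log2 fold change of 2.40 ± 0.33 (edgeR, adjusted p = 0.0320). Every chemokine-high sum exceeded every other sum, but the call was lost without the second old (adjusted p = 0.187) or the first young (0.140) LPS library. Cxcl3 (chromosome 5, 90786103 to 90789600, plus strand) had 312, 452, 215 and 132 CPM, against 88.1, 86.0, 41.6 and 35.8 CPM and 7.64 to 11.4 CPM in control cells, a change of 2.16 ± 0.09 (edgeR, adjusted p = 1.34e-16). Cxcl15, the lung-specific mouse chemokine that AE2 cells also make without injury, differed by 0.02 ± 0.05 (edgeR, adjusted p = 0.88). Of these 3 tested genes 2 were thus higher and 0 lower. Of 10 other chemokines 3 were called higher and 0 lower, with a median log2 fold change of 0.75. Among the 3 is Cxcl9, which lay near the floor (below). Without the second old LPS library 1 of 9 was higher. Cxcl16, the membrane-bound ligand of CXCR6, had 309.9, 251, 343 and 217 CPM in the chemokine-high cells, against 261, 131, 156 and 127 CPM in the other AE2 cells, and differed by 0.79 ± 0.14 (edgeR, adjusted p = 0.00703; 0.371 without the second old LPS library). Cx3cl1, the ligand of CX3CR1, differed by 0.71 ± 0.17 (edgeR, adjusted p = 0.00279), and by 0.49 with cells thinned to 3000 UMIs (0.351). The third gene called, Cxcl9, an interferon-induced ligand of CXCR3, was nearly absent in most sums (0.225, 2.51, 9.88 and 0 CPM, against 0, 0.654, 0.200 and 0 CPM). Only chemokine-high sums exceeded 0.654 CPM, and Cxcl9 entered the fit through them, so its call is a description. Cx3cl1 and Cxcl9 were named after their values were seen. Ccl2, which attracts monocytes (1.90 ± 0.62, adjusted p = 0.19), and Cxcl10, a ligand of CXCR3 (1.25 ± 0.56, adjusted p = 0.30), did not pass.

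Among cytokines and growth factors, 7 of 17 tested genes were higher and 2 lower in the chemokine-high cells, with a median log2 fold change of 0.67. Csf3 (chromosome 11, 98701263 to 98703629, plus strand) had 221, 148, 33.6 and 87.5 CPM in the chemokine-high cells, against 54.8, 30.9, 4.20 and 9.66 CPM in the other AE2 cells and at most 0.501 CPM in control cells. It was higher in 4 of 4 libraries by 2.38 ± 0.17 (edgeR, adjusted p = 7.73e-06), while the sums overlapped because both classes were lower in young lungs. Csf1, which supports macrophages, had 39.4, 36.9, 59.3 and 45.3 CPM, against 27.9, 18.2, 18.4 and 16.3 CPM (1.08 ± 0.16; edgeR, adjusted p = 2.29e-04). The T-cell co-stimulatory ligand Tnfsf9 differed by 0.89 ± 0.10 and the death-receptor ligand Tnfsf10 by 0.67 ± 0.14. Tnf, named after its values were seen, was low throughout, with 12.6, 14.0, 18.8 and 6.18 CPM, against 7.72, 3.92, 2.20 and 1.81 CPM (1.57 ± 0.28; edgeR, adjusted p = 5.81e-04). Lif (1.77) and Gdf15 (1.11) were the other 2 higher genes. The growth factors Pdgfa (-0.87) and Vegfa (-0.52) were lower. The call of Vegfa was lost without the second old LPS library (adjusted p = 0.0528).

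**Figure D3:**
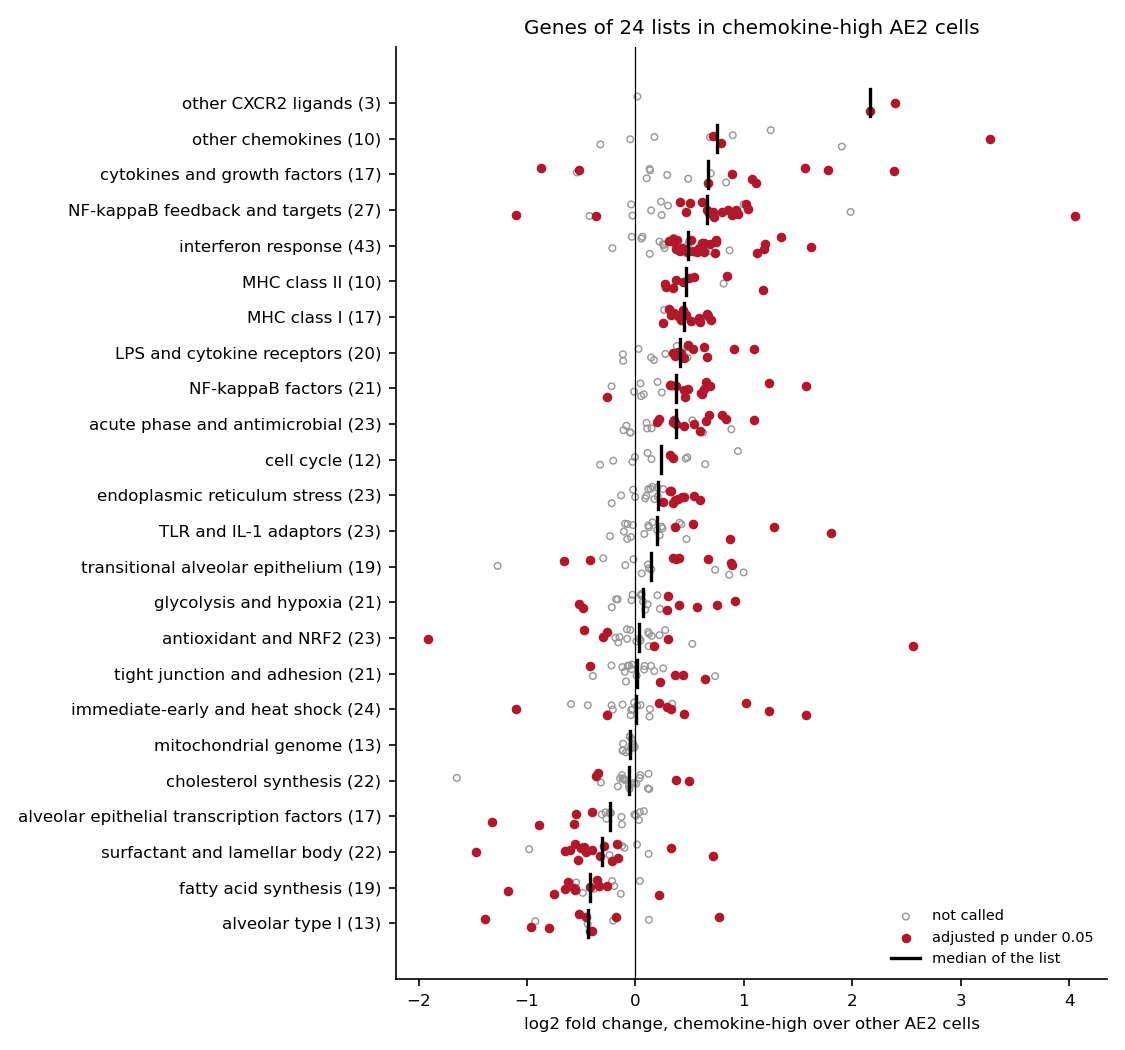
Log2 fold changes of chemokine-high against other AE2 cells for the tested genes of 24 gene lists, 1 point per gene, filled red where the edgeR adjusted p is under 0.05, with the list's median as a bar. Chemokine, cytokine, NF-kappaB, interferon and MHC lists sit above 0, while the surfactant, fatty acid and AE1 lists sit below it (medians -0.31, -0.42 and -0.44).

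Receptors that sense LPS and cytokines were higher in the chemokine-high cells: 11 of 20 tested genes passed upward and 0 downward, with a median log2 fold change of 0.41. The LPS co-receptor Cd14 had 2460.4, 2439, 1704 and 1586 CPM, against 1749, 1075, 927 and 855 CPM in the other AE2 cells and 70.7 to 149.9 CPM in control cells (0.90 ± 0.08; edgeR, adjusted p = 1.73e-06). Ly96, which encodes the TLR4 partner MD-2, differed by 0.53, and Tlr2, the lipoprotein receptor named after its values were seen, by 1.10 ± 0.21. The interferon-gamma receptor chain Ifngr2 (0.63 ± 0.09), the oncostatin M receptor Osmr (0.49) and the TNF receptor Tnfrsf1a (0.45) were higher as well, Osmr not without the second old LPS library (adjusted p = 0.059). Of the adaptors and kinases downstream of TLRs and the IL-1 receptor, 5 of 23 were higher and 0 lower (median 0.20). They were the kinase genes Ikbke (1.80), Ripk2 (1.28 ± 0.15, named after its values were seen), Map3k8 (0.87) and Tbk1 (0.53 ± 0.11) and the adaptor Myd88 (0.37 ± 0.11; edgeR, adjusted p = 0.0160). Myd88 had 59.5, 66.5, 65.2 and 58.7 CPM, against 60.8, 42.7, 50.6 and 43.2 CPM, was not higher in the first old library, and lost its call without any 1 of the other 3 LPS libraries (adjusted p = 0.264 without the second old, 0.0758 without the first young and 0.0762 without the second young).

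The NF-kappaB and partner transcription factors followed the same direction, with 13 of 21 higher and 1 lower in the chemokine-high cells (median 0.38). The subunit genes Relb (0.68 ± 0.10), Nfkb1 (0.60), Nfkb2 (0.48) and Rela (0.46) and the co-regulator Nfkbiz (0.65 ± 0.09) were all among them, while Jun was lower (-0.26), a call lost without the second old, the first young or the second young LPS library. Egr1, an immediate-early zinc-finger factor, had 38.5, 34.9, 68.2 and 51.5 CPM, against 20.5, 10.9, 20.4 and 11 CPM in the other AE2 cells (1.57 ± 0.17; edgeR, adjusted p = 2.52e-06). Its level in the other AE2 cells overlapped that of control cells (15.9 to 25.2 CPM). Of 27 NF-kappaB feedback and target genes, 16 were higher and 2 lower (median 0.66). The largest of the 16 was Nos2 (4.05), named after its values were seen and near the floor. With 1 CPM added, its log2 ratios per library were 0.08, 2.19, 3.04 and 1.41. Nfkbia, which encodes the inhibitor that holds NF-kappaB in the cytoplasm and is itself induced by it, had 1039.6, 855, 785 and 673 CPM, against 758, 426, 403 and 374 CPM and 51.8 to 89.2 CPM in control cells (0.86 ± 0.07; edgeR, adjusted p = 2.48e-08). Tnfaip3, the ubiquitin-editing inhibitor A20, had 69.6, 65.1, 66.2 and 63.8 CPM, against 46.0, 32.1, 35.6 and 31.4 CPM (0.89 ± 0.10; edgeR, adjusted p = 2.26e-07). Nfkbia and Tnfaip3 were named after their values were seen. The subunit genes named above and the inhibitors Nfkbia and Tnfaip3 were thus higher in the same class of cells. The 2 genes of the feedback and target list called lower were Dusp1 (-1.10 ± 0.13) and Traf1. Icam1, the adhesion molecule that neutrophils bind through integrins, had 1029, 1019, 1164 and 1293 CPM, against 706, 514, 628 and 600.2 CPM (0.92 ± 0.07; edgeR, adjusted p = 1.64e-08). The inhibitors Tnip3 (1.04 ± 0.15) and Ier3 (1.02 ± 0.16) lost their calls without the second old LPS library (adjusted p = 0.161 and 0.177).

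Of 23 tested acute-phase and antimicrobial genes, 13 were higher in the chemokine-high cells and 0 lower (median 0.37). Saa3, serum amyloid A3, had 11974, 18138, 11512 and 12609 CPM, against 7454, 8162, 8065 and 7215 CPM in the other AE2 cells and 64.9 to 89.9 CPM in control cells (0.83 ± 0.07; edgeR, adjusted p = 9.19e-07). Il4i1, a secreted amino acid oxidase, had 2367, 2079.8, 1686 and 1486 CPM, against 1619.7, 884, 694 and 667 CPM (1.09 ± 0.14; edgeR, adjusted p = 0.00583; 0.226 without the second old LPS library). The metalloreductase Steap4 (0.79 ± 0.09), complement factor B (Cfb, 0.68 ± 0.14; adjusted p = 0.0799 without the second old LPS library) and haptoglobin (Hp, 0.45 ± 0.07) were higher. Lcn2, the siderophore-binding lipocalin 2, had 91632, 80895, 91242 and 91259 CPM, against 87196, 49587, 80349.7 and 76246 CPM, a change of 0.35 ± 0.09 (edgeR, adjusted p = 0.0480; 0.0829 without the second young LPS library). The call of Lcn2 was also lost with other scalings (edgeR, adjusted p = 0.0970 with RLE and 0.106 with library size alone). It was lost as well with top quartiles within libraries (0.178) and with cells thinned to 3000 UMIs (0.167). Lcn2 was named after its values were seen.

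**Figure D4:**
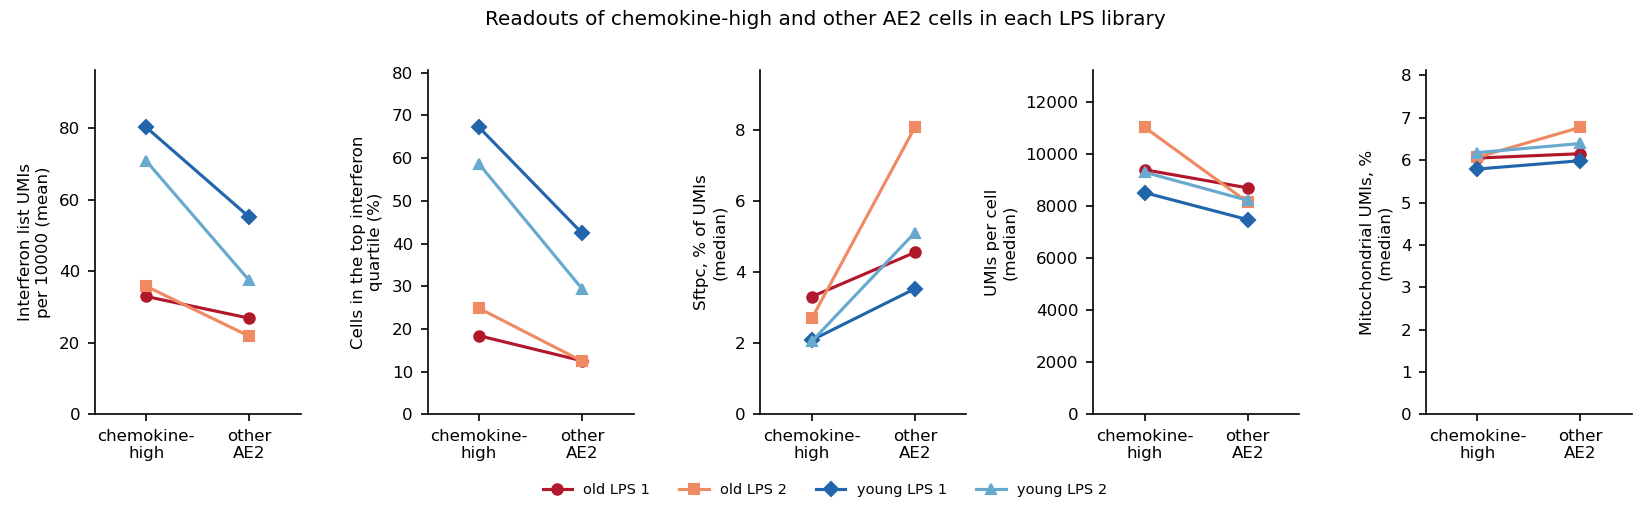
Paired values of chemokine-high and other AE2 cells in each LPS library for interferon-response UMIs per 10000, the share of cells in the top interferon quartile, Sftpc, total UMIs and the mitochondrial share, with lines joining the classes of a library. Interferon UMIs lie higher in the chemokine-high cells in 4 of 4 libraries (33.0 against 26.9, 35.8 against 21.9, 80.3 against 55.2 and 70.9 against 37.5), and Sftpc lies lower in 4 of 4.

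Interferon-response genes were also higher in the chemokine-high cells: 26 of 43 passed upward and 0 downward (median 0.48). The guanylate-binding proteins, interferon-induced GTPases that act on intracellular pathogens, led the list. Gbp2 had 240.3, 339, 1449 and 1151 CPM in the chemokine-high cells, against 147, 161, 650.0 and 454 CPM in the other AE2 cells and 4.14 to 7.59 CPM in control cells (1.12 ± 0.08; edgeR, adjusted p = 2.55e-08). Gbp5 had 36.9, 66.5, 258 and 191 CPM, against 17.5, 32.7, 99.7 and 61.0 CPM (1.35 ± 0.10; edgeR, adjusted p = 9.01e-11). Both classes held more of these transcripts in the young lungs than in the old, and the chemokine-high cells were higher in each library. Gbp4 (1.62 ± 0.23) and Gbp3 (1.20 ± 0.10) were called as well; these genes lie in families of close copies, between which reads may be split. Irf1 (0.74 ± 0.16; edgeR, adjusted p = 0.0239), the transcription factor of the response named after its values were seen, lost its call without the second old (adjusted p = 0.375) or the first young (0.0605) LPS library.

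Over the whole list, interferon UMIs averaged 33.0, 35.8, 80.3 and 70.9 per 10000 in the chemokine-high cells, against 26.9, 21.9, 55.2 and 37.5 in the other AE2 cells, a mean difference of 19.6 ± 12.1 (SD, n = 4; two-sided exact sign-flip permutation p = 0.13, the smallest that 4 libraries can give). It was 18.9 with cells thinned to 3000 UMIs. The top interferon quartile of all AE2 cells after LPS held 18.4% and 24.9% of the chemokine-high cells of old lungs and 67.2% and 58.7% of those of young lungs, against 12.6% and 12.5% of the other AE2 cells of old lungs and 42.5% and 29.4% of those of young lungs. In all, 313 cells were in both top quartiles, which is 30.0% of each. The chemokine-high class of old lungs was thus mostly outside the interferon quartile and that of young lungs mostly inside it.

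Antigen presentation genes were shifted nearly as a whole in the chemokine-high cells. Of 17 tested genes of the MHC class I list 16 were higher and 0 lower (median 0.45). Of 10 class II genes 9 were higher and 0 lower (median 0.46). The class I list holds more than the MHC chains, such as Tap1, Nlrc5, Calr and Pdia3. Calr and Pdia3 count again among the endoplasmic reticulum stress genes below. The peptide transporter Tap1 had 115, 162, 375 and 360.2 CPM, against 91.2, 90.9, 262 and 204 CPM in the other AE2 cells (0.67 ± 0.08; edgeR, adjusted p = 4.17e-07). H2-Q7 differed by 0.70 ± 0.10 (adjusted p = 0.266 without the second old LPS library) but has near-identical neighbours such as H2-Q6, so its counts are uncertain. The light chain gene B2m had 876, 1164, 1244 and 1126 CPM, against 816, 841, 955 and 764 CPM (0.42 ± 0.07; edgeR, adjusted p = 3.21e-05). The class II transactivator Ciita differed by 0.54 ± 0.11, the peptide-loading gene H2-DMb2 by 0.85 ± 0.15 and the invariant chain Cd74 by 0.28 ± 0.05. B2m and Cd74 were named after their values were seen. In the old libraries alone 10 interferon genes, 5 class I genes and 1 class II gene were called higher, beside 2.22% of all genes tested. In the young libraries alone it was 26, 16 and 8, beside 3.86% of all genes. These counts are no test of a difference between the ages. The edgeR test of that difference called 1 of 10550 genes, Tnfaip2.

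**Figure D5:**
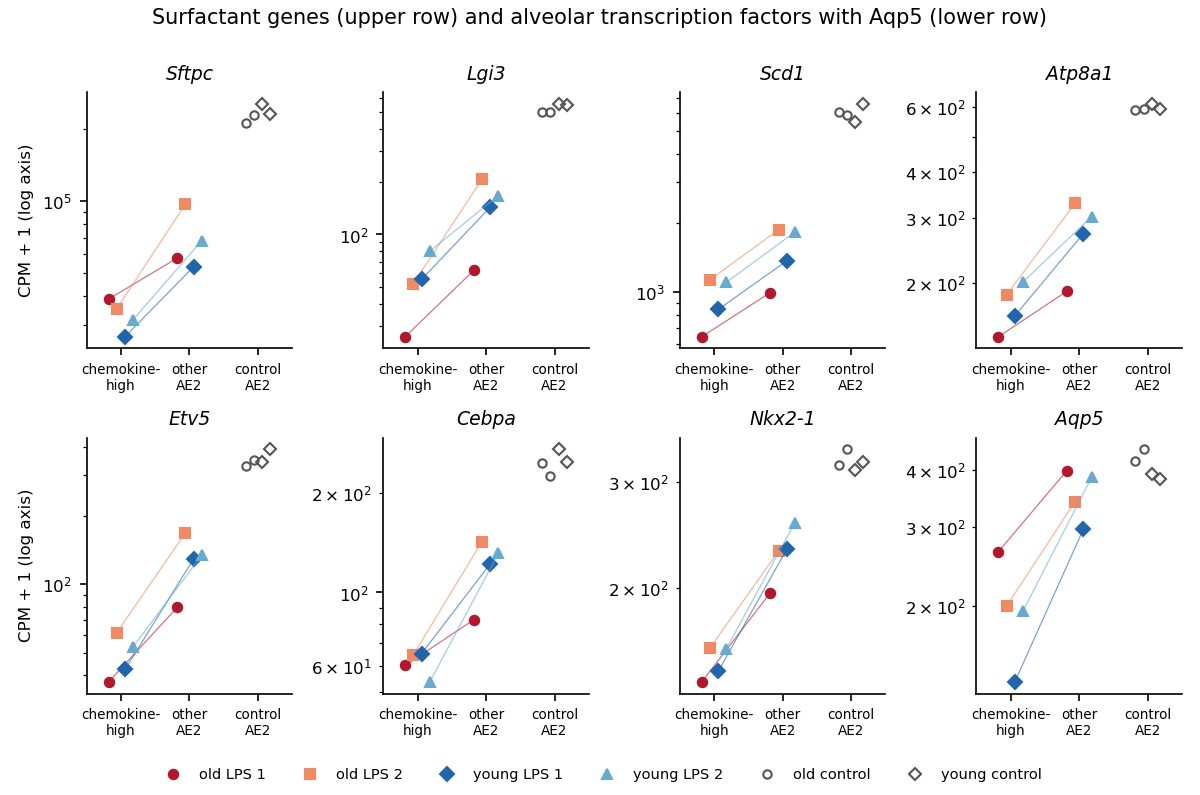
CPM (log axis of CPM + 1) of 8 AE2 and AE1 identity genes in the summed chemokine-high cells, other AE2 cells and control AE2 cells, 1 point per library. Etv5 lies at 36.5 to 60.6 CPM in chemokine-high cells, 78.3 to 167 CPM in other AE2 cells and 329.6 to 389 CPM in control cells.

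Genes of surfactant and lamellar bodies were lower in the chemokine-high cells: 14 of 22 tested genes passed downward and 2 upward (median -0.31). Sftpc had 38673, 35261, 26862 and 31740.2 CPM, against 57434, 96688, 52841 and 67996 CPM in the other AE2 cells and 212672 to 254749 CPM in control cells. All chemokine-high sums lay below all other sums, but the change of -0.98 ± 0.18 did not pass (edgeR, adjusted p = 0.0622), and Sftpc took part in choosing AE2 cells. Sftpb, surfactant protein B, had 3117, 4217, 3893 and 4137 CPM, against 3905, 6942, 6037 and 6371 CPM and 8559 to 9591 CPM in control cells (-0.53 ± 0.06; edgeR, adjusted p = 1.04e-07). Abca3, the lipid transporter of lamellar bodies, had 248, 310.4, 329 and 342 CPM, against 330.4, 554, 466 and 526 CPM (-0.56 ± 0.07), and the phosphate transporter Slc34a2 differed by -0.48 ± 0.06. Sftpb, Abca3 and Slc34a2 were named after their values were seen, and Abca3 and Slc34a2 served in the AE2 rule. The secreted protein gene Lgi3 had 25, 51.4, 54.3 and 79.2 CPM, against 61.3, 206, 142 and 166 CPM and 497 to 556 CPM in control cells (-1.47 ± 0.13; edgeR, adjusted p = 2.03e-06). The flippase Atp8a1 differed by -0.60 ± 0.08. The exceptions were the amino acid transporter Slc6a14 (0.71 ± 0.10) and the protease gene Ctsc (0.33), both higher. Lamp3 (0.01) and the collectin Sftpd (0.12) did not pass, and Sftpa1 (-0.12 ± 0.04) narrowly missed (adjusted p = 0.0571).

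Of 17 alveolar epithelial transcription factors 5 were lower and 0 higher in the chemokine-high cells (median -0.24). Etv5, an ETS factor that maintains the AE2 state in mice and is 1 of the 6 genes of the AE2 rule, had 36.5, 60.6, 41.5 and 52.5 CPM, against 78.3, 167, 128 and 133 CPM in the other AE2 cells and 329.6 to 389 CPM in control cells (-1.32 ± 0.10; edgeR, adjusted p = 2.96e-11). Cebpa, a factor of AE2 maturation, had 59.0, 63.7, 64.2 and 52.5 CPM, against 81.6, 142, 121 and 130.5 CPM and 225 to 271 CPM in control cells (-0.89 ± 0.11; edgeR, adjusted p = 2.03e-06). Nkx2-1, the master regulator of lung epithelium, had 139, 158, 144 and 157 CPM, against 195, 229, 231 and 255 CPM and 312 to 339 CPM in control cells (-0.55 ± 0.07; edgeR, adjusted p = 2.17e-06). For these 3 factors the chemokine-high, the other and the control sums did not overlap, in that rising order. Srebf1, the regulator of lipid synthesis (-0.57 ± 0.12), and Hopx (-0.40) were the other 2.

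Fatty acid synthesis, which supplies surfactant lipid, was lower for 11 of 19 tested genes and higher for 1 (median -0.42). The number lower was 7 without the second young LPS library. Scd1, a fatty acid desaturase, had 641, 1134, 842 and 1105 CPM in the chemokine-high cells, against 997, 1868, 1369 and 1826 CPM in the other AE2 cells and 5505 to 6564 CPM in control cells (-0.65 ± 0.06; edgeR, adjusted p = 2.01e-09). Scd2 (-0.75 ± 0.08), the elongase Elovl1 (-0.62 ± 0.07) and fatty acid synthase (Fasn, -0.55 ± 0.07, named after its values were seen) were lower, and the fatty acid binding protein Fabp5 (0.22) was higher. Of the 11 lower genes, Scd1 also counts in the surfactant list and Srebf1 among the transcription factors. Cholesterol synthesis did not follow: 2 of 22 genes were higher and 2 lower (median -0.06). Mvd, an enzyme of that pathway, was higher by 0.49 ± 0.10.

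Lower AE2 genes did not go with higher AE1 genes. Of 13 tested AE1 genes 8 were lower and 1 higher in the chemokine-high cells (median -0.44). Among the 8, Gprc5a also counts in the surfactant list, Hopx among the transcription factors and Vegfa among the growth factors. Cldn18 counts again in the transitional and the junction lists below. Aqp5, the water channel of AE1 cells, had 263, 199, 135 and 195 CPM, against 397, 339, 295 and 384 CPM in the other AE2 cells and 381 to 443 CPM in control cells (-0.79 ± 0.08; edgeR, adjusted p = 8.10e-09). Lmo7 differed by -0.96 ± 0.11 and the cytochrome P450 gene Cyp2b10 by -1.39 ± 0.12, while Pdpn, podoplanin, was higher (0.77), though not without the second old or the first young LPS library. Of 19 genes of the transitional alveolar state, 6 were higher and 2 lower (median 0.15). The integrin gene Itgb6 had 108, 74.6, 87.9 and 53.5 CPM, against 81.0, 39.5, 31.4 and 26.1 CPM (0.89 ± 0.14; edgeR, adjusted p = 3.28e-04; 0.153 without the second old LPS library). The TWEAK receptor gene Tnfrsf12a (0.89 ± 0.11) and Trp53 (0.66 ± 0.14) were higher, and the lectin gene Lgals3 was lower (-0.65 ± 0.12). Of 21 tight junction and adhesion genes 4 were higher and 1 lower (median 0.01), namely Cd44 (0.64 ± 0.08), Cd47 (0.43), Cldn7 (0.36) and Epcam (0.23), and Cldn18, the main claudin of the alveolus (-0.42 ± 0.06). Without the second young LPS library 2 of these were higher, and the call of Cldn7 was lost (adjusted p = 0.0562).

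Of metabolic and stress genes, the endoplasmic reticulum stress list moved most evenly, with 10 of 23 tested genes higher and 0 lower (median 0.21). Manf, a secreted protein induced by that stress, had 621, 709.6, 540.5 and 481 CPM in the chemokine-high cells, against 480.0, 402, 407 and 374 CPM in the other AE2 cells and 114 to 132 CPM in control cells (0.54 ± 0.07; edgeR, adjusted p = 9.66e-07). Sdf2l1 (0.59 ± 0.09) and the chaperone gene Hspa5 (0.43 ± 0.07) were also higher. Of 21 glycolysis and hypoxia genes 6 were higher and 2 lower (median 0.07), with 3 higher without the first or without the second young LPS library. Hif1a, the oxygen-regulated transcription factor, had 187, 181, 173 and 179 CPM, against 147, 104, 92.5 and 94.4 CPM (0.76 ± 0.09; edgeR, adjusted p = 4.17e-07), while its usual target Bnip3 was lower (-0.48 ± 0.10). Immediate-early and heat shock genes were split, with 7 of 24 higher and 2 lower (median 0.00), as were antioxidant genes, with 3 of 23 higher and 4 lower (median 0.04), 5 higher without the first old, 1 lower without the second old and 2 lower without the first young LPS library. Of 12 cell cycle genes 2 were higher and 0 lower (median 0.23): the inhibitor Cdkn1a (0.35 ± 0.09) and cyclin D1 (Ccnd1, 0.32 ± 0.09), each call lost without the first young (adjusted p = 0.0643 and 0.0892) or the second young (0.0588 and 0.0932) LPS library. None of the 13 mitochondrial genome transcripts was called in edgeR (median -0.05). Several called genes count in more than 1 list: Egr1, Atf3, Ier3, Junb, Dusp1 and Jun are also in the NF-kappaB lists, and Cdkn1a is in the transitional list.

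The genes with the largest differences apart from these lists follow, together with Dusp1, which is a member of the NF-kappaB feedback and the immediate-early lists. Rnd1 had 51.6, 41.9, 35.6 and 26.8 CPM in the chemokine-high cells, against 18.7, 10.6, 5.40 and 2.27 CPM in the other AE2 cells and at most 0.627 CPM in control cells (2.03 ± 0.26; edgeR, adjusted p = 0.00113; 0.112 without the second old LPS library). The actin-binding kinase substrate Marcks (1.53 ± 0.14), the surface glycoprotein Cd83 (1.40 ± 0.09), the chemerin-binding receptor Ccrl2 (1.38 ± 0.12), the ubiquitin ligase gene Neurl3 (1.31 ± 0.14) and the endocytic recycling gene Ehd1 (1.20 ± 0.13; adjusted p = 0.203 without the second old LPS library) followed. Aqp3, a channel for water and glycerol, had 28.2, 32.7, 54.3 and 58.7 CPM, against 16.5, 13.3, 15 and 17.2 CPM and at most 0.308 CPM in control cells (1.39 ± 0.16; edgeR, adjusted p = 9.27e-07). For Rnd1 and Aqp3 both classes lay above all control sums, and the chemokine-high sums lay above all others. At the other end, the secreted resistin-like protein gene Retnla had 6.08, 11.7, 7.90 and 9.26 CPM, against 42.7, 51.2, 37.4 and 22.7 CPM and 33.2 to 58.8 CPM in control cells (-2.27 ± 0.17; edgeR, adjusted p = 2.96e-11). With the top 25% taken within each library, Retnla differed by -1.39 and did not pass (adjusted p = 0.288). The lipoprotein receptor Vldlr (-1.74 ± 0.20), the Rap1 inactivator Rap1gap (-1.49 ± 0.16), the copper transporter Atp7b (-1.33 ± 0.19; -0.85 without the second old LPS library), the TGF-beta pseudoreceptor Bambi (-1.26 ± 0.15), the phosphatase gene Dusp1 (-1.10 ± 0.13) and the sphingosine-phosphate phosphatase gene Sgpp2 (-1.08 ± 0.13) were lower. The levels of Retnla and Vldlr in the other AE2 cells overlapped those of control cells.

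Lists of other cell types differed in level in the chemokine-high cells. The 12 club and secretory markers summed to 155 to 181 UMIs per 10000, against 126 to 174 in the other AE2 cells, and were higher in 3 of 4 libraries. Most of that sum was Hp, which had 15196, 16762, 13403 and 14312 CPM, against 13298, 9769.7, 11223 and 10886 CPM. The monocyte and macrophage list summed to 156 to 255, against 184 to 289, and was lower in 4 of 4 libraries. Nearly all of it was Lyz2, the lysozyme that mouse AE2 cells also make, and Cx3cr1, C1qa and Adgre1 were at 0. The AE1 markers summed to 12.3 to 13.9, against 15.4 to 17.4. No other list summed to over 2.74. The 14 neutrophil markers summed to 0.0103 to 0.0305 UMIs per 10000, against 0.0426 to 0.0592 in the other AE2 cells, and 10 of them, Csf3r, Cxcr2 and Mmp9 included, were at 0. The 6 mast cell and the 5 mesothelial markers were all at 0, as were 10 of 12 T and NK cell markers, Cd3e included. Ciliated-cell markers were lower in the chemokine-high cells: their sum was 0.217 to 0.578 UMIs per 10000, against 0.729 to 1.47, and 9 of 12 passed downward. Cells with at least 3 markers of any of 3 other cell types, ciliated cells among them, were then left out. With these cells gone (0 to 3 chemokine-high and 5 to 9 other cells per library), 2 of 5 tested ciliated markers passed downward. The tubulin-binding gene Tppp3, named after its values were seen, then differed by -0.49 and did not pass (adjusted p = 0.321), against -1.85 ± 0.23 with them. Alveolar macrophage markers summed to 0.764 to 1.05, against 0.60 to 0.680, higher in 4 of 4 libraries, with Marco, Siglecf and Cidec at 0. Most of that sum was Plet1, the 1 of 4 tested members that was called. The erythroid and platelet list was higher in 4 of 4 libraries (2.08 to 2.74, against 1.04 to 1.67), with Hbb-bt, Hba-a1, Hba-a2 and Alas2 at 0; it rested on Pf4, a platelet chemokine of the same chromosome 5 cluster as Cxcl5, which had 254, 284, 220.3 and 204 CPM, against 169, 109, 104 and 126 CPM. Their part in the results was not tested. Cells among the 3% of highest doublet scores were fewer in the chemokine-high class (1.86%, 1.17%, 3.45% and 1.92%, against 4.18%, 7.13%, 5.68% and 3.27%). The median mitochondrial share was lower in 4 of 4 libraries by 0.306 percentage points on average (exact sign-flip p = 0.13).

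The contrast between chemokine-high and other AE2 cells differed with age for 1 of 10550 genes at an adjusted p under 0.05 in edgeR. The old minus young term was positive in 0% and negative in 0.00948% of all genes at that threshold, and 459 had an unadjusted p under 0.05. The gene was Tnfaip2, an NF-kappaB-induced gene of membrane protrusions. It had 283 and 302 CPM in chemokine-high cells of old lungs and 311 and 153 CPM in those of young lungs, against 113 and 107 CPM in the other AE2 cells of old lungs and 42.2 and 23.3 CPM in those of young lungs. The chemokine-high levels of the ages overlapped, while the other AE2 cells were higher in old lungs. Its old minus young difference was -1.47 ± 0.16 (edgeR, adjusted p = 1.43e-04), and its contrast over both ages was 1.98 ± 0.40 (adjusted p = 0.076). Among the next genes by p, none of which passed, were Plpp3 (-1.99 ± 0.41), Il33 (0.87 ± 0.18), Csf3 (-1.06 ± 0.24), Chia1 (0.53 ± 0.13), Rnd1 (-1.43 ± 0.35), Clic5 (-0.84 ± 0.20), Mrps18b (1.03 ± 0.25) and Ubd (-1.75 ± 0.44). Il33, an alarmin of AE2 cells, had 333 and 328 CPM in chemokine-high cells of old lungs and 92.9 and 78.2 CPM in those of young lungs, against 434 and 353 CPM and 168 and 226 CPM in the other AE2 cells of old and young lungs. With 2 libraries an age this fit had 2 residual degrees of freedom, and its count changed with the libraries used: 0 to 33 genes were called with a positive and 0 to 48 with a negative old minus young term when 1 library was left out, with the highest counts without the first and without the second old LPS library. The sign of the term does not say at which age a difference is larger, since for a gene lower in the chemokine-high cells, such as Il33, a positive term goes with the larger difference in young lungs.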

How the data were processed

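In the deposited tables, 1 per group and lane, the authors left the UMI counts of each barcode unnormalized. They list 31053 genes; 30934 had a symbol in GENCODE M21 (GRCm38) and 119 did not. The submitters' processing notes name bcl2fastq, STAR, Cell Ranger 3.1.0, R 3.6.3, Seurat (3.1, 3.1.5) and build mm10. The sources used here give neither their roles, nor how barcodes were tied to hashtags, nor the route of LPS. Barcodes with under 500 genes or over 20% mitochondrial UMIs were left out. Doublets were scored per lane with scrublet in scanpy 1.11.5, which called 14 cells, too few to work with, so the 3% of highest scores were left out as an alternative. Free RNA was not removed.

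UMIs were summed per library and class (8 sums of 967355 to 7514892 UMIs, 104 to 897 cells), since cells are not replicates. Low genes were removed with filterByExpr and the scoring genes were left out. TMM scaling and robust quasi-likelihood fits in edgeR 4.0.16 (R 4.3.3) followed, with library as a block, because both classes come from the same library; this leaves 3 residual degrees of freedom, with a biological coefficient of variation of 0.0742. The age term is the interaction in the same fit. SEs are approximate: the size of the log2 difference divided by the root of its F statistic. CPM are scaled with TMM over the 8 sums and the 4 control sums. Readouts per library were compared with exact sign-flip tests (4 libraries) and shares with exact permutation tests. Alternatives were DESeq2 1.42.0, other scalings, filters, cell choices and libraries; those on single ages and on cells with markers of 3 other cell types were added after the data were seen. The fits were tested on simulated data. The members and the gene lists were chosen with earlier results of these data known. Named by rule were the 15 largest called genes each way with at least 20 CPM and 1 sign in 4 libraries. The rule also took up to 4 called genes per list, the 10 smallest interaction p and 2 markers per list. Genes outside this rule are said to be so where they are named, save those given only to account for a list's calls. Cxcl15, Ccl2, Cxcl10, Lamp3 and Sftpd are also outside it and are given as list members that were not called. Some genes that this rule takes are not reported here.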

Additional observations from a re-analysis of the deposited data

Results flagged for a closer look

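Tnfaip2 was the gene whose contrast between chemokine-high and other AE2 cells differed between the ages by a test of the difference itself: -1.47 on the log2 scale, old minus young (edgeR interaction, adjusted p = 1.43e-04). It was not called without the first young LPS library, without the block or with thinned cells.

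Scoring genes were also seen after LPS in cells that the comparisons did not use, above the level in control libraries. In ciliated-like cells, Cxcl5 had a median of 0.262 UMIs per 10000 over 4 LPS libraries (range 0.140 to 1.45), against 0 to 0.114 in control libraries. Ccl20 had 1.19 (0.474 to 2.98), against 0 to 0.153. Ptprc-positive cells were taken with no limit on Sftpc. Of them, 7 of 100 and 7 of 85 in the old LPS libraries met the rest of the AE2 rule. In the young LPS libraries it was 2 of 61 and 10 of 58. In Ptprc-positive cells, Cxcl1 had a median of 1.18 UMIs per 10000 (0.303 to 2.34), against 0.0225 to 0.109 in control libraries. Cxcl5 had 1.37 (0.782 to 4.12), against 0.0112 to 0.0630, and Csf2 had 0.203 (0.0757 to 0.465), against 0.00909 to 0.0401. The chemokine-high cells held 8.98 to 17.0 Cxcl1 and 14.0 to 16.3 Cxcl5 UMIs per 10000. The part of free RNA in these values was not tested, nor that of the Ptprc-positive cells that met the rest of the AE2 rule.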

How the results depend on the processing

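Depth limits genes of a few CPM in the young chemokine-high sums, which hold 967355 and 984219 UMIs. Of 2617 values for 140 named genes under 19 alternatives, 2224 kept their direction and their side of the threshold, 334 lost it, 43 gained it and 16 changed sign. Without the replicate block 113 genes were higher and 129 lower, and 82 named values lost their call; both classes of a library share its age and state, so the block is kept. DESeq2 called 355 higher and 254 lower. Cells thinned to 3000 UMIs gave 393 and 402, the top decile 416 higher, the old libraries alone 231 and 332, and the young alone 363 and 198. Leaving out cells with 3 markers of 4 other cell types gave 100 and 67, with 79.7% to 92.2% of cells removed. Library size alone gave 577 higher and 951 lower. Leaving out each library in turn gave 405 to 687 higher and 356 to 718 lower. For the age difference, 0 to 33 genes were called with a positive and 0 to 48 with a negative old minus young term without 1 library; without the filter on low counts it was 2 and 7, with top quartiles within libraries 2 negative, and without the block or with thinned cells 0. The cause of these changes was not tested.

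Values that changed sign belong to genes not called. The log2 fold change of Chil3 was 0.77 with thinned cells, 0.18 for the top decile, 0.12 against the bottom quartile, 0.47 in the young libraries and -0.31 to 0.044 without 1 library. The log2 fold change of Chia1 was -0.038 with library size alone, -0.00995 with no filter, -0.0085 without the highest doublet scores, -0.0066 without cells with markers of 3 other types, -0.27 in the young libraries and -0.10 to 0.13 without 1 library. The log2 fold change of Clic5 was -0.21 in the old libraries and -0.017 to 0.29 without 1 library, and the log2 fold change of Mrps18b was -0.013 without cells with markers of 4 other types and -0.43 in the young libraries. Hashtag counts differed by 0.0112 (log2, exact sign-flip p = 0.875) and per 10000 UMIs by -0.262. The difference in the share of chemokine-high cells ranged from 11.9 to 26.5 points over the alternatives; as a replicate block within lanes it was 20.6 points (exact p = 0.5).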
